A study of Mus musculus with 6 samples.

Results

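Aire, Fezf2, Ccl17 and Ccl22 are 4 genes of mature medullary thymic epithelium, 2 of them transcription regulators and 2 chemokines. They were picked by symbol from the 50600 gene identifiers in the files, and all 4 passed the filter on low counts that left 16938 genes for testing. RNA was sequenced from primary thymic epithelial cells that the labels call cortical (cTECs) of the thymus, taken at an age of 8 to 10 weeks. The 3 KO libraries came from B6.B6CB-Psmb11tm1Smta mice without functional Psmb11 (Psmb11-/-), and the 3 WT libraries from mice of that strain name with both alleles intact (Psmb11+/+). Psmb11 encodes β5t, the proteasome subunit of cTECs, and the deletion is in the germ line, so every cell of a KO mouse lacks it. The labels do not say whether the replicates A to C were separate mice, so p-values measure only the spread between these libraries. They give no sort gate either. The design text also names medullary cells and thymocytes, which were not analysed here.

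In the thymic medulla, epithelial cells express genes that otherwise belong to peripheral tissues, so that developing T cells meet those antigens. Aire, a chromatin-associated regulator, switches on many of these antigen genes in mature medullary cells, and Fezf2, a zinc finger factor also known from cortical neurons, drives another set. Ccl17 and Ccl22 are secreted ligands of the receptor CCR4 and attract maturing thymocytes to the medulla; dendritic cells make them too. In the thymus the 4 genes are known chiefly from medullary cells and not from cTECs, so the question here is how much of their RNA cTEC libraries hold, and whether that differs without Psmb11.

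The libraries held 34265035 to 36713388 gene counts in KO and 34660349 to 39224292 in WT. Psmb11 had 67, 36 and 41 counts in KO A, B and C, against 8293, 9297 and 10027 in the WT replicates. The 13 markers of cortical epithelium summed to 8369 to 9412 CPM (gene counts scaled to a common library size) in KO and 12883 to 13312 CPM in WT. The 10 markers of immature medullary epithelium, Krt5 and Krt14 among them, summed to 8303 to 8568 CPM in KO and 6782 to 7348 CPM in WT. CPM is not scaled for gene length, so the sums of different lists cannot be set against each other. Replicate A of the KO libraries stood apart from the other libraries in markers of some non-cortical cells. Its late medullary list went the other way, at 135 CPM, against 186 and 173 CPM in KO replicates B and C. Its thymocyte list summed to 78.2 CPM, while the other libraries lay between 41.6 and 55.0 CPM, and its dendritic cell and macrophage list summed to 93.1 CPM, against 76.7 and 78.6 CPM in KO replicates B and C and 44.0 to 48.5 CPM in WT. The 4 genes and the lists of medullary and dendritic cell markers are therefore also given without it.

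Aire (ENSMUSG00000000731.15) lies on chromosome 10, positions 78030022 to 78043610 on the minus strand of GRCm38. It had 360, 233 and 169 counts in KO A, B and C, against 152, 95 and 82 counts in WT A, B and C. In CPM these were 9.70, 6.32 and 4.94 in KO, against 4.41, 2.65 and 2.10 in WT. Every KO library was above every WT library, although the lowest KO value and the highest WT value were close. The level averaged 6.99 ± 2.45 CPM in KO, against 3.05 ± 1.21 CPM in WT (SD, n = 3 each), 2.31-fold higher in KO, with a log2 fold change (KO over WT) of 1.21 ± 0.37 (SE). Aire was not called at an adjusted p below 0.05 (edgeR quasi-likelihood test, adjusted p = 0.0669 by Benjamini-Hochberg over all genes tested), with an interval of 0.30 to 2.11 on the log2 scale (95%, not adjusted for the number of genes). That outcome turned on how the spread was estimated: with edgeR's default in place of robust estimation the adjusted p was 0.00709 and Aire was called. Robust estimation was itself taken as the main fit only after both had been seen, so neither has precedence. Over all 17 alternatives the adjusted p ran from 2.53e-06, in a fit with a block for the replicate letter, to 0.164. The letters were not taken as pairs. The log2 fold change stayed above 0, and Aire was called in 6. Without KO replicate A the log2 fold change was 0.89 (edgeR adjusted p = 0.0539). In a bulk sample, more cells of a type and more RNA per cell cannot be told apart.

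Fezf2 (ENSMUSG00000021743.5) lies on chromosome 14, positions 12342094 to 12348189 on the minus strand of GRCm38 in the annotation used here, which lists a later version of the gene. It was the most abundant of the 4. Its counts were 1066, 709 and 731 in KO A, B and C, against 619, 428 and 663 in WT A, B and C. In CPM these were 28.7, 19.2 and 21.4 in KO, against 18.0, 11.9 and 17 in WT, so the groups did not overlap, with the gap between KO replicate B and WT replicate A small. The level averaged 23.1 ± 4.97 CPM in KO, against 15.6 ± 3.24 CPM in WT (n = 3 each), 1.48-fold higher in KO, with a log2 fold change of 0.57 ± 0.23 (SE) and an interval of -0.03 to 1.16. It was not called (edgeR adjusted p = 0.159), and the adjusted p was 0.0198 without robust estimation. It was called in 2 of 17 alternatives, the default estimation and a fit with a block for the replicate letter. The adjusted p-values lay between 3.19e-05, in that block fit, and 0.313. The letters were not taken as pairs. Without KO replicate A the log2 fold change was 0.38 (edgeR adjusted p = 0.207).

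Ccl22 (ENSMUSG00000031779.3; GRCm38 chromosome 8, 94745590 to 94751699, plus strand) had 214, 150 and 42 counts in KO A, B and C, against 76, 88 and 48 counts in WT A, B and C. The levels were 5.77, 4.07 and 1.23 CPM in KO, against 2.21, 2.45 and 1.23 CPM in WT. KO replicates A and B were above all WT libraries, while KO replicate C was level with the lowest WT library, so the groups overlapped. The log2 fold change was 0.92 ± 0.64 (SE) with an interval of -0.75 to 2.60 (edgeR adjusted p = 0.388). Without KO replicate C it was 1.33 and Ccl22 was called (edgeR adjusted p = 0.00676), and without KO replicate A it was 0.45 (edgeR adjusted p = 0.698), so single libraries decided its value.

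Ccl17 (ENSMUSG00000031780.2; GRCm38 chromosome 8, 94810453 to 94812036, plus strand) was close to the limit of detection. It had 14, 32 and 3 counts in KO A, B and C, against 53, 6 and 7 counts in WT A, B and C. Counting error alone allows 0.619 to 8.77 reads for KO replicate C and 39.7 to 69.3 for WT replicate A (exact Poisson 95% intervals, which cover counting error only), so the libraries differed by more than counting. WT replicate A was the highest of all 6 libraries and KO replicate C the lowest, and the other WT libraries lay between KO replicates A and C. The means were 0.444 ± 0.395 CPM in KO, against 0.628 ± 0.788 CPM in WT, with a log2 fold change of -0.45 and an interval of -3.52 to 2.61 (edgeR adjusted p = 0.838). Without WT replicate A the log2 fold change was 1.35 and without KO replicate C it was 0.01, neither called; without KO replicate A it was -0.34. These data give Ccl17 no direction.

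**Figure D1:**
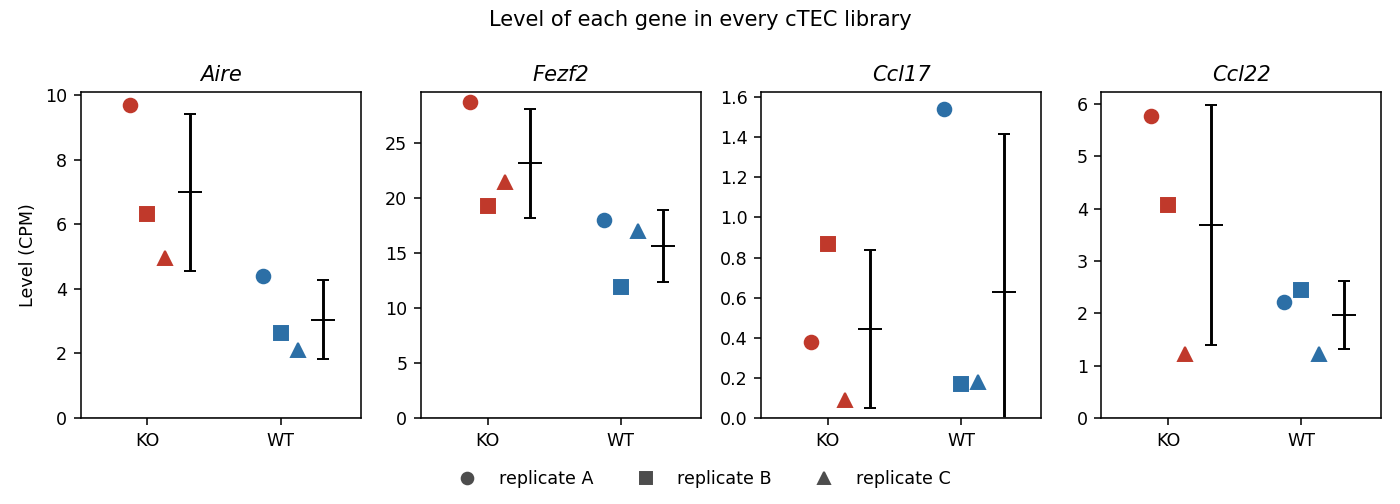
Level in CPM (linear axes, each from 0) of Aire, Fezf2, Ccl17 and Ccl22 in the 3 KO libraries (red, left) and 3 WT libraries (blue, right); marker shapes give the replicate letter and black bars the mean ± SD, drawn only above 0 for Ccl17. Aire and Fezf2 do not overlap between genotypes, KO replicate A is highest for Aire, Fezf2 and Ccl22, and WT replicate A is highest for Ccl17.

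Of the 4 genes, 0 were called, in a comparison where 23.6% of all genes tested were called (edgeR). With edgeR's default estimation 2 of the 4 were called, Aire and Fezf2, and the choice between these fits was made after both had been seen. At an unadjusted p below 0.05 in the robust fit, 1 of the 4, Aire, passed. DESeq2 called Aire (adjusted p = 0.0268) and not Fezf2, Ccl17 or Ccl22, and limma on the TPM values called none of them at either pseudocount. The groups failed to overlap, with KO higher, for 2 of the 4 genes; this held for 19.2% of all genes tested. The median log2 fold change of the 4 was 0.74, against 0.00 for all genes tested.

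**Figure D2:**
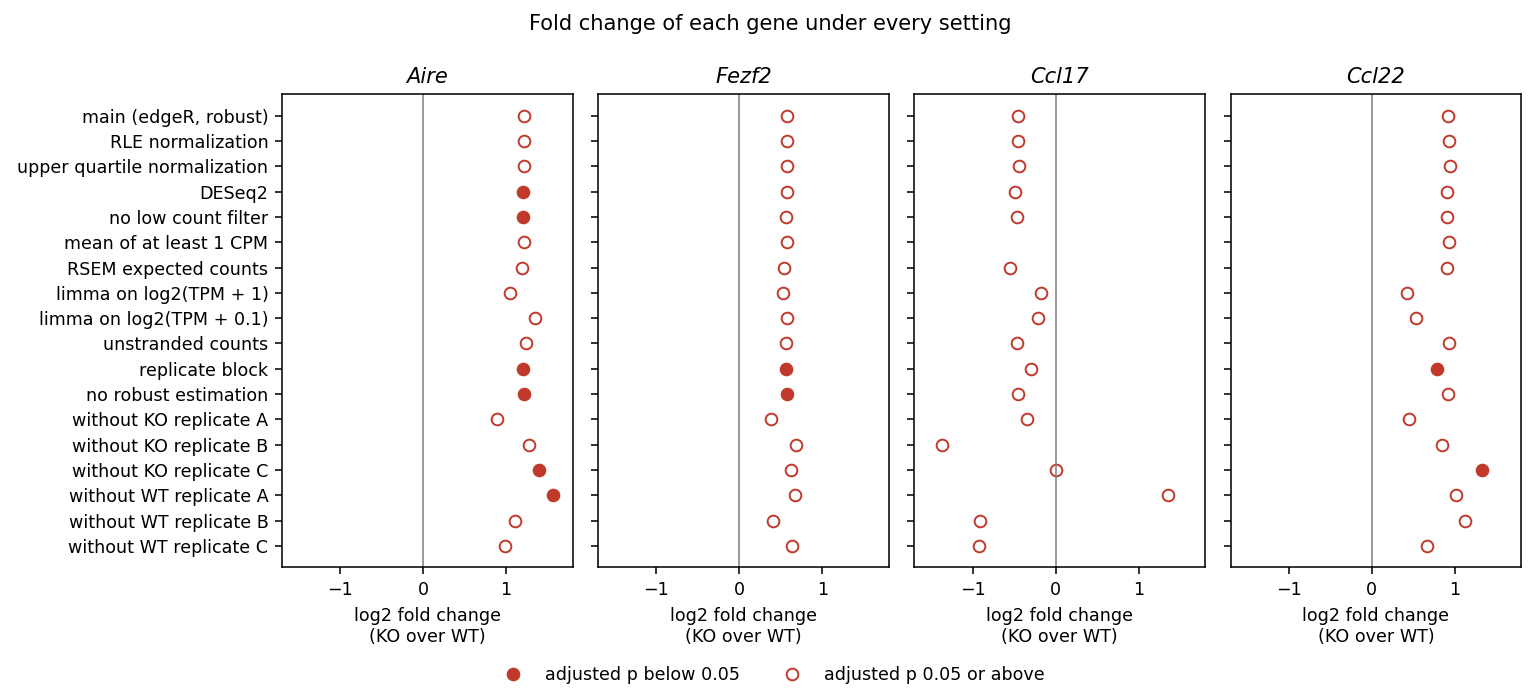
Log2 fold change (KO over WT, x axis) of each of the 4 genes under the main edgeR fit and each alternative (rows); filled points have an adjusted p below 0.05. Aire, Fezf2 and Ccl22 are above 0 in every row, from 0.38 for Fezf2 without KO replicate A to 1.56 for Aire without WT replicate A, whereas Ccl17 lies on both sides of 0.

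All 4 genes varied more between libraries of one genotype than most genes of a similar level. The coefficient of variation of Aire was 35.0% in KO and 39.6% in WT, while the medians were 10.5% in KO and 9.0% in WT over the 2345 tested genes within 2-fold of its mean. Fezf2 had 21.5% in KO and 20.8% in WT, against medians of 5.48% in KO and 4.54% in WT over 4255 genes. Ccl22 had 62.2% in KO and 33.0% in WT, and Ccl17 had 88.8% in KO and 125% in WT. The robust fit lent these genes little of the spread shared across genes: the prior degrees of freedom were 1.81 for Aire and 0.873 for Fezf2, against a median of 11.8 over the genes tested.

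The genes can be set against each other only per length, as TPM (the length-scaled transcript level from RSEM). In KO the mean levels were 17.3 ± 3.48 TPM for Fezf2, 5.37 ± 1.84 TPM for Aire, 3.22 ± 2.0 TPM for Ccl22 and 1.89 ± 1.48 TPM for Ccl17. In WT they were 11.7 ± 2.40 TPM for Fezf2, 2.78 ± 3.39 TPM for Ccl17, 2.06 ± 0.733 TPM for Aire and 1.98 ± 0.878 TPM for Ccl22. Fezf2 was highest in every library. In KO every Aire value lay above every Ccl17 value, by a small gap, while Ccl22 overlapped both; in WT the other 3 genes overlapped. RSEM weighted Ccl22 to a transcript length of 1563 bases in WT replicate A and 2216 bases in the other libraries, which raises its TPM in that library alone. The length of Aire varied as well, from 2059 to 2156 bases in KO, against 2600, 2120 and 2350 bases in WT A, B and C. The longer values lower the TPM of Aire in WT A and C.

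The ratio of Fezf2 to Aire TPM was 2.90, 2.96 and 4.25 in KO A, B and C, against 4.87, 4.10 and 10.2 in WT A, B and C. The values of the genotypes overlapped (exact permutation test, two-sided, p = 0.2, where 3 against 3 allows no p below 0.1). The ratio of Aire to Ccl22 TPM was 1.45, 1.43 and 3.43 in KO, against 0.978, 1.03 and 1.22 in WT, without overlap (exact permutation test, two-sided, p = 0.1, the smallest possible). This separation was not present in the deposited counts, whose ratio was 1.68, 1.55 and 4.02 in KO, against 2.0, 1.08 and 1.71 in WT (exact permutation p = 0.6, two-sided, computed after the TPM ratio was seen). The ratio of Ccl22 to Ccl17 TPM overlapped as well (exact permutation p = 0.5, two-sided), which makes 3 TPM ratios and 1 count ratio compared, none of which could pass 0.05.

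The stretches just upstream of the starts of Aire and Fezf2, the 2 genes without overlap between genotypes, are shown because the 2 regulators are transcribed from their ends. Each is 250 bases long and ends at the RefSeq start site (build GRCm38.p6, minus strand). Capitals mark matches, on either strand, to the motifs searched. The letters TATAAA are of the core promoter element bound by the general machinery. The letters CCAAT are of the element bound by NF-Y, and GGGCGG of the element bound by Sp factors. The letters TGANTCA, with any base N, are looser than the element bound by AP-1, which has C or G there. An interferon response element and the kappaB consensus are given by name.
Aire, chr10:78043611-78043860: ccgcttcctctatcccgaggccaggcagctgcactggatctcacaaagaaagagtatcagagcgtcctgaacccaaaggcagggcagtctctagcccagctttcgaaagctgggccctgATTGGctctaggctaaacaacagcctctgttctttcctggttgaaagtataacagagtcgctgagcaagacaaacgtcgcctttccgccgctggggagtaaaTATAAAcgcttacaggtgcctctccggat
Fezf2, chr14:12345866-12346115: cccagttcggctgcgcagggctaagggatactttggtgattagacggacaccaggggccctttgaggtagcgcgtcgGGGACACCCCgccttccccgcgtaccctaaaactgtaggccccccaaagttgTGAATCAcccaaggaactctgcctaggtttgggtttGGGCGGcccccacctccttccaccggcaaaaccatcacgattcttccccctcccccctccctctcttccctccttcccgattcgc
The Aire stretch holds a TATAAA at 29 to 24 bases before the start and an inverted CCAAT at 131 to 127 bases before it. Of 32851 promoter windows of the same length, 12.4% hold TATAAA and 33.8% CCAAT. The Fezf2 stretch holds a kappaB consensus match at 173 to 164 bases, a TGANTCA at 121 to 115 bases and a GGGCGG at 85 to 80 bases before the start. The TGANTCA match reads TGAATCA, with A in the middle, so it is not the AP-1 element itself. The kappaB consensus, TGANTCA and GGGCGG occur in 7.25%, 6.75% and 32.7% of the windows. The motifs were chosen after the sequences were seen, so the shares do not measure how unusual the matches are. The interferon response element occurs in 2.98% of the windows and in neither stretch. The stretches of Ccl17 and Ccl22 hold none of the 6 motifs as searched. These are letter matches only. The RefSeq starts of Fezf2 and Ccl22 lie within the spans of these genes in the annotation used for positions. The Aire stretch lies within the span of the gene Dnmt3l.

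Of the genes next to the 4, Icosl and Cadps rose, Ciapin1 fell, and Pfkl and Cx3cl1 were not called. Aire overlaps the start of Dnmt3l, a cofactor of DNA methylation on the opposite strand, over 1664 bases. Dnmt3l had 0.117 to 0.243 CPM in KO and 0.0279 to 0.128 CPM in WT and was not tested. Reads on the strand of Dnmt3l counted for Aire numbered 0 to 7 per library, and counting without strand gave Aire 991 reads over all libraries, against 1091 with strand. Of the flanking genes of Aire, Pfkl, a glycolytic enzyme, was not called (log2 fold change -0.04, edgeR adjusted p = 0.645) and Icosl, a costimulatory ligand, rose by 0.26 on the log2 scale (edgeR adjusted p = 0.00406). Next to Fezf2, Cadps, a regulator of vesicle release, rose by 0.73 (edgeR adjusted p = 0.00919), and the small nucleolar RNA gene Gm24578 had 0 counts. Between Ccl22 and Ccl17 lies Cx3cl1, a membrane chemokine, with 411 ± 18.2 CPM in KO, against 403 ± 11.2 CPM in WT (n = 3 each, not called, edgeR adjusted p = 0.653). Ciapin1, on the other side of Ccl17, fell by 0.24 on the log2 scale (edgeR adjusted p = 0.0067). Gnb1-ps3 and Gm22846, which flank Ccl22, had 0 counts.

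Genes whose profile over the 6 libraries was most like that of Aire, Fezf2 or Ccl22 were found by the root-mean-square difference of log2(CPM + 0.5), each gene centred on its own mean, over 12883 protein coding genes. For Aire they were the glutamate receptor subunit Grin2c (0.135), the chemokine Ccl9 (0.155) and the cytokine subunit Il23a (0.188), against a root-mean-square deviation of Aire from its own mean of 0.660. For Fezf2 they were Unc13d, a vesicle priming factor (0.063), the Nogo receptor gene Rtn4r (0.073) and the leukotriene synthase Ltc4s (0.078). For Ccl22 they were Lef1, a transcription factor of the Wnt pathway (0.303), the T cell receptor adaptor Lcp2 (0.322) and the surface glycoprotein Cd52 (0.348). The distance between Aire and Fezf2 themselves was 0.409. Each profile is only 6 values, and KO replicate A was the highest library for all 9 of these genes.

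Signals that mature medullary epithelium pass through the receptors RANK, CD40 and lymphotoxin β receptor to NF-kappaB. Of 17 genes on that list 3 rose, 4 fell and 10 were not called; their median log2 fold change was -0.01. By limma on TPM 2 rose and 0 fell. Tnfrsf11a, which encodes RANK, had 23.2, 19.8 and 19.9 CPM in KO A, B and C, against 12.7, 10.6 and 12 CPM in WT A, B and C. All KO libraries lay well above all WT libraries, a 1.78-fold rise (edgeR adjusted p = 7.44e-06) that held under all alternatives run. The kinase gene Chuk rose 1.15-fold, which was not called without WT replicate C (edgeR adjusted p = 0.0774). Traf3, an inhibitor of the noncanonical pathway, and Ltbr, the lymphotoxin receptor, were 1.13-fold and 1.10-fold lower in KO. The call of Ltbr was lost without KO replicate B (edgeR adjusted p = 0.061) or WT replicate C (0.0509). By limma on TPM neither was called, with a log2 fold change of -0.09 for Traf3 (adjusted p = 0.428 at the lowest) and -0.08 for Ltbr (0.123). Relb and Nfkb2, the noncanonical NF-kappaB subunits, are named outside the rule for their known role and were not called: Relb had 79.6 CPM in KO, against 79.8 CPM in WT, and Nfkb2 had 149 CPM in KO and 146 in WT. Nfkb1, of the same list and named after its value was seen, was 1.11-fold lower in KO (edgeR adjusted p = 0.0133).

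Of 21 genes for proteins reported to work with Aire, 3 rose, 2 fell and 16 were not called (median log2 fold change 0.06), a share called close to the 23.6% of all genes tested. Xrcc5, a DNA repair protein, and Hipk2, a kinase, fell by 0.27 and 0.21 on the log2 scale, and the chaperone of histones Daxx was 1.16-fold higher in KO. Neither Hipk2 nor Daxx was called by limma on TPM (adjusted p = 0.153 and 0.0699 at the lowest). Of 11 genes set beside Fezf2, its paralog Fezf1 and the NuRD complex with its ATPase Chd4, 2 fell and 0 rose (median log2 fold change -0.04). Rbbp7 was 1.16-fold lower in KO. Mbd3 was 1.08-fold lower, and its call was lost without any one of the 6 libraries (edgeR adjusted p between 0.0583 and 0.114).

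Of 13 antigen genes known to depend on Aire, 12 were matched by symbol and 2 passed the filter on low counts. Csn2, a milk casein, had 198, 121 and 119 counts in KO A, B and C, against 68, 54 and 18 in WT A, B and C. All KO libraries were above all WT libraries, with 4.03 ± 1.13 CPM in KO, against 1.31 ± 0.775 CPM in WT (n = 3 each). The log2 fold change of Csn2 was 1.64 (edgeR adjusted p = 0.0539, not called; 0.0062 without robust estimation). Pcp4, a neuronal calmodulin regulator, was not called, and its level differed by source: the strand counts gave 0.375 CPM in KO, against 0.374 CPM in WT, while RSEM gave 34.6 ± 7.59 TPM in KO, against 35.3 ± 2.92 TPM in WT (n = 3 each), more than Fezf2. The reads RSEM assigned to Pcp4 were thus mostly not in the counts. The list thus had 0 called in edgeR, 1 at an unadjusted p below 0.05 (Csn2), 1 in DESeq2 and 0 in limma. S100a8 and S100a9, which neutrophils express as well, had 1 to 28 counts in every library. Mup4, a major urinary protein, had 13 counts in KO replicate B and 55 in WT replicate B and 0 in the other libraries, and the insulin gene Ins2 had 5 counts in KO replicate B, 1 in WT replicate B and 0 in the others. Mup genes are near-identical copies, so the Mup4 counts are uncertain. Rbp3 and Cartpt had 0 counts in all 6 libraries. Of 9 genes on the list known to depend on Fezf2, 4 passed the filter and 0 were called (edgeR; median log2 fold change 0.07), with 1 at an unadjusted p below 0.05 (Resp18) and 0 in DESeq2 and limma. Maoa had 25.5 CPM in KO, against 25.8 CPM in WT, and Krt10 had 9.91 CPM in KO and 9.58 in WT.

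**Figure D3:**
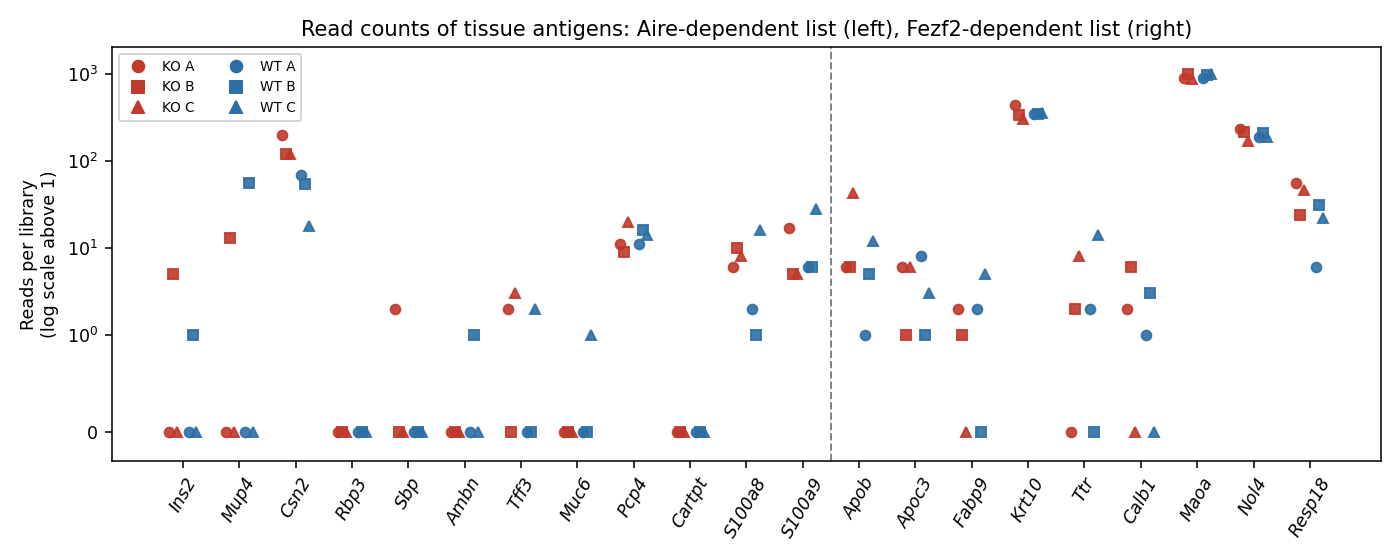
Reads per library (y axis, log scale above 1) of antigen genes on the Aire-dependent list (left of the dashed line) and the Fezf2-dependent list (right), for 3 KO (red) and 3 WT (blue) libraries with replicate letters as shapes. Csn2 is the antigen on the left with reads in all libraries at a higher level, from 119 to 198 in KO and 18 to 68 in WT, and Mup4 has reads only in the B replicates.

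Receptors of the medullary chemokines were low, apart from a decoy. Ccr4, the receptor of Ccl17 and Ccl22, had 45, 16 and 17 counts in KO A, B and C, against 10, 6 and 9 in WT A, B and C. It rose 3.11-fold (edgeR adjusted p = 0.0185), a call lost without KO replicate A (0.163), WT replicate B (0.092) or WT replicate C (0.0679). By limma on TPM its log2 fold change was 0.26 at a pseudocount of 1 (adjusted p = 0.301) and 0.77 at 0.1 (0.239), against 1.63 in edgeR. Ccr7, which guides thymocytes and dendritic cells to the medulla, had 6.14, 2.52 and 2.60 CPM in KO, against 0.726, 0.724 and 1.23 CPM in WT. Its 4.17-fold rise (edgeR adjusted p = 0.0129) was not called without WT replicate A (0.0589) or WT replicate B (0.0513). Ackr4, the atypical receptor that takes up Ccr7 ligands and Ccl25, fell to 415 ± 38.5 CPM in KO, against 543 ± 20.9 CPM in WT (n = 3 each, edgeR adjusted p = 0.00152). Of the other medullary chemokines 1 of 4 tested rose, beside 2113 called higher among all 16938 genes tested. It was Ccl20, with 0.842 ± 0.461 CPM in KO, against 0.249 ± 0.0611 CPM in WT (edgeR adjusted p = 0.00824). In edgeR the adjusted p was 0.0709 without KO replicate A and 0.0514 without WT replicate C. By limma at a pseudocount of 1 TPM it was 0.0612.

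Most other markers of mature medullary epithelium rose. Of 10 on that list 8 rose and 1 fell, with a median log2 fold change of 1.24, and 7 rose without KO replicate A and 5 by limma on TPM. Cldn3, a tight junction protein, had 10.4, 13.6 and 13.5 CPM in KO A, B and C, against 4.53, 5.99 and 4.71 CPM in WT A, B and C. It was 2.46-fold higher in KO, and the protease Ctss was 2.03-fold higher (edgeR adjusted p = 1.03e-05 for Cldn3 and 1.24e-05 for Ctss). Which cells the RNA of Cldn3 and Ctss came from was not tested, and markers of dendritic cells and macrophages rose as well. Fabp5, a fatty acid binding protein, fell to 328 ± 29.8 CPM in KO, against 528 ± 19.6 CPM in WT, and makes up most of the summed level of the list. The costimulatory genes Cd80 and Cd86, named after their values were seen, were 2.88-fold and 5.58-fold higher, with at most 2.02 CPM of Cd80 and 0.808 CPM of Cd86 in any library; dendritic cells express them too. Of 10 markers of immature medullary cells 6 rose and 0 fell (median 0.33), among them Ly6d 1.74-fold, Plet1 1.72-fold, Krt14 1.32-fold and Krt5 1.30-fold, and the count was 6 without KO replicate A. Of 6 tested markers of late medullary cells 2 rose, Grhl3 2.64-fold and the protease inhibitor Spink5 2.57-fold. The call of Spink5 was lost without any one library other than KO replicate A (edgeR adjusted p between 0.0527 and 0.093).

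**Figure D4:**
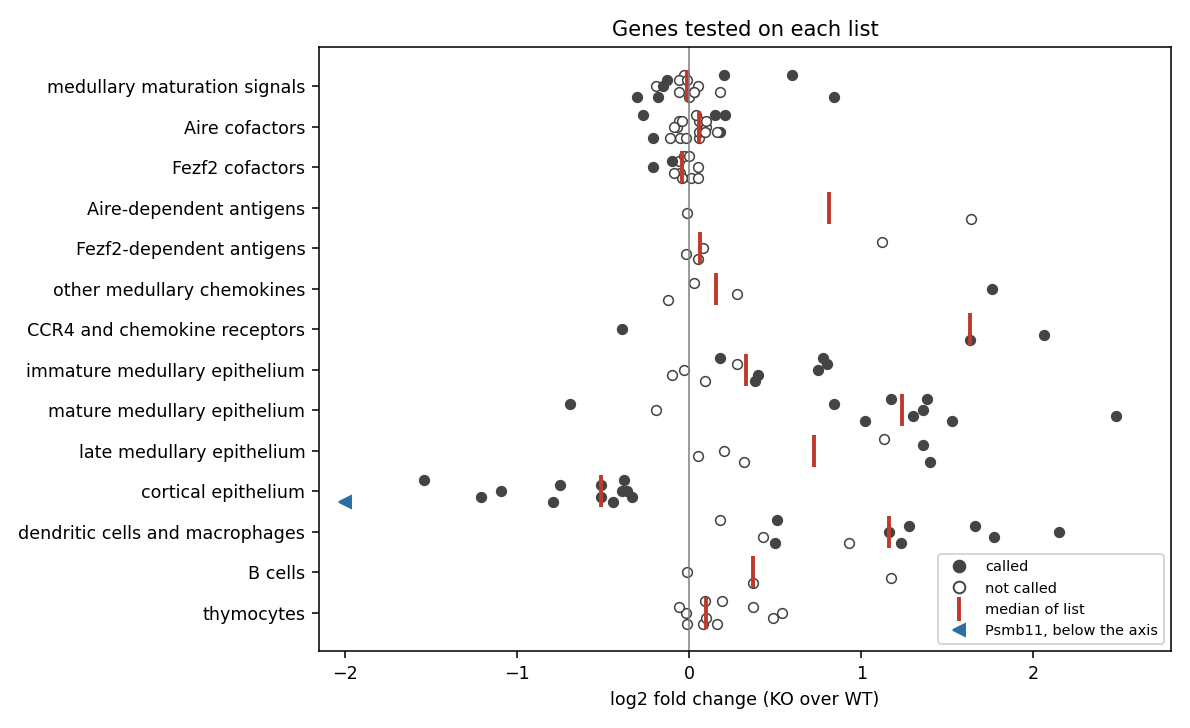
Log2 fold change (KO over WT, x axis) of every tested gene of each list (rows); filled points were called, open points were not, and red bars mark the median of the list. Mature medullary markers centre on 1.24 and dendritic cell and macrophage markers on 1.16, while the signals list centres on -0.01 and all 13 cortical markers lie below 0, with Psmb11 at -7.56 drawn at the edge.

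Markers of dendritic cells and macrophages were higher in KO, while no B cell or thymocyte gene was called in the main fit. Of 17 dendritic cell and macrophage markers 11 were tested, of which 8 rose and 0 fell (median log2 fold change 1.16). Without KO replicate A 5 rose, and 4 did by limma on TPM. Among all 16938 genes tested, 2113 were called higher and 1876 lower. Lyz2, Fscn1, Itgax and Mpeg1 were 2.42-fold, 2.35-fold, 3.40-fold and 1.41-fold higher in KO, and Itgax was not called by limma on TPM (adjusted p = 0.0525 at the lowest). Defining dendritic cell genes were at few reads: Clec9a had 1, 0 and 0 counts in KO A, B and C, against 1, 3 and 0 in WT A, B and C, Cd209a had 5, 4 and 5 in KO, against 4, 4 and 0 in WT, and Siglech had 21, 3 and 3 in KO, against 2, 2 and 0 in WT. Of the B cell list, whose cells can make Aire, 3 of 7 genes were tested and 0 called (edgeR, DESeq2 and limma, with 0 at an unadjusted p below 0.05), with Ebf1 at 19.1 CPM in KO, against 19.3 CPM in WT and Cd79b at 1.34 CPM in KO against 1.04 CPM in WT. The list summed to 19.5 to 25.6 CPM in KO and 19.3 to 21.7 CPM in WT, with 4 of the 7 genes at 0 in some libraries. Ebf1 makes up most of that sum, so the sum says little of the other genes. Their list had a median log2 fold change of 1.23 over 7 genes by DESeq2. In edgeR 1 of 4 tested rose without KO replicate C, and likewise without WT replicate C. Of 11 tested thymocyte genes 0 were called (edgeR, DESeq2 and limma, with 0 at an unadjusted p below 0.05), with Lck at 11.5 CPM in KO, against 10.1 CPM in WT and Rag1 at 10.3 CPM in KO against 9.61 CPM in WT. The part that these cells have in the levels of Aire, Fezf2, Ccl17 and Ccl22 was not tested.

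All 13 cortical markers, the deleted Psmb11 among them, fell (median log2 fold change -0.51), also without KO replicate A. Among all 16938 genes tested, 1876 were called lower. Cxcl12 had 876 ± 20.8 CPM in KO, against 1250 ± 40.5 CPM in WT, and Ly75 and Enpep were 1.42-fold and 1.36-fold lower in KO (n = 3 each).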

How the data were processed

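PolyA RNA of 3 KO and 3 WT libraries was prepared with a stranded kit, per the labels' protocols. The authors deposited read counts per gene in 3 columns (unstranded and either strand), and RSEM expected counts, transcript lengths and TPM. STAR 2.5.1b, RSEM 1.2.28 and bcl2fastq 2.17 are named in the submitters' processing notes. Those notes name a human build, GRCh38, while the identifiers are mouse Ensembl genes; symbols and positions were therefore taken from GENCODE M21 (GRCm38), which matched 50376 of 50600 identifiers, and promoters from RefSeq.

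The opposite-strand counts as deposited were the main measurement. Rows that name no gene held 18.43% to 19.81% of all reads and were left out. Genes passing filterByExpr (16938) were fitted with edgeR 4.0.16 (TMM, quasi-likelihood test, robust estimation, KO against WT, no covariate) in R 4.3.3, and genes were called where the p adjusted by Benjamini-Hochberg was below 0.05. Robust estimation was made the main fit after both it and the default had been seen. CPM uses TMM-scaled library sizes. The code was tested on simulated data. DESeq2 1.42.0, limma 3.58.1 on log2(TPM + 1) and log2(TPM + 0.1), other scalings and filters, rounded expected counts, unstranded counts, a replicate block and leaving out each library were alternatives. Same-genotype libraries differed by more than sampling noise (chi-square per gene 4.93 to 8.87), so each counted as 1 sample.

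The 4 genes and all lists were chosen with earlier results of these data known, and the motifs after the sequences were seen. The lists share genes, which count on each. Tnfrsf11a and Cd40 are on the signals and mature medullary lists. Krt10 is on the Fezf2-dependent and late medullary lists, and Ccl21a on the other chemokine and immature medullary lists. Named genes were Psmb11, the 4 genes, up to 4 called genes of each list by increasing p (if none was called, the 2 tested genes of highest CPM), the 3 genes of most similar profile, the nearest neighbours, and listed genes that were not tested. Spt1 and Ccl21c were not analysed here. One gene that the naming rule selects is not reported here.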

Additional observations from a re-analysis of the deposited data

How the results depend on the processing

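The log2 fold changes of Aire, Fezf2 and Ccl22 stayed above 0 under all 17 alternatives, but their calls did not hold to one side. Aire was also called with DESeq2 (1.2), without the filter on low counts (1.2) and with edgeR's default in place of robust estimation (1.21); that choice of main fit was made after both had been seen. Fezf2 was called with the default as well (0.57). Leaving out each library in turn gave 0.89 to 1.56 for Aire (called without KO replicate C or WT replicate A), 0.38 to 0.68 for Fezf2, 0.45 to 1.33 for Ccl22 and -1.37 to 1.35 for Ccl17, which was above 0 without KO replicate C (0.01) or WT replicate A (1.35). The replicate block called Aire (1.2), Fezf2 (0.56) and Ccl22 (0.79). The letters A to C were not taken as pairs: same-letter deviations correlated at -0.018, 0.095 and -0.039, the B libraries highest of all 9 combinations, and KO replicate A was most like WT replicate C. Genes called numbered 1927 by limma at a pseudocount of 1 TPM and 1857 at 0.1 TPM, against 3989. Ccl17 had no value at a mean of at least 1 CPM. For 39 other named genes, 609 of 659 values were called or not called as in the main fit, 42 lost the call and 8 gained it. Values that changed direction with a call in either fit numbered 0. Genes called in neither fit did change direction in places, as Rag1 from 0.1 to -0.22 without KO replicate A. The causes were not tested. Ccl17 had at most 53 reads in any library.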
